A study of Homo sapiens with 2 samples.

Results

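The HOX genes were examined in Ca9-22 cells, a line from a carcinoma of the gingiva, stably transduced either with a control (empty) vector or with 1 for RUNX2, a runt-domain transcription factor. Members were all probe sets of the array whose only annotated symbol was HOXA, HOXB, HOXC or HOXD followed by a number, without antisense genes. The rule gave 44 probe sets for 28 genes, of 41091 probe sets and 19775 genes with 1 symbol on the array, and these were 1 HOXA gene, 10 HOXB genes, 9 HOXC genes and 8 HOXD genes. Of 38 HOX genes considered, HOXD3 and 9 HOXA genes (HOXA3, HOXA4, HOXA5, HOXA6, HOXA7, HOXA9, HOXA10, HOXA11 and HOXA13) had no probe set under the rule and were not analysed here, so the HOXA cluster is represented by HOXA2 alone. The groups were 1 array of cells with the empty vector, called the control array here, and 1 array of cells with the RUNX2 vector. Cells of both groups had been selected with blasticidin for the stable vector, and total RNA was labelled. The labels do not say whether the transduced cells were clones or pools, nor what drives the insert.

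HOX genes encode homeodomain transcription factors that give cells along the head-to-tail axis, and along the limbs, their positional identity. In mammals they stand in 4 clusters on different chromosomes, numbered so that genes with the same number (paralogs) descend from a common ancestor, with low numbers read out towards the head and high numbers towards the tail and the limb ends. The proteins bind DNA together with TALE homeodomain partners of the PBX and MEIS families, and Polycomb and trithorax complexes keep the clusters silent or active through cell division. The mesenchyme of the first pharyngeal arch, from which the jaws form, is known as a region without HOX expression, while carcinomas and their cell lines often express HOX genes out of place.

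With 1 array per group there was no test between groups and no p-value, and precision is limited by the number of arrays. Levels are intensities in arbitrary units on a linear scale. The array labelled RUNX2 was multiplied by 0.966 so that the 2% trimmed means of both arrays were equal, and its levels are given after that step. A gene is called above the median on an array if at least 1 of its probe sets exceeded the median of all probe sets of that array, which was 55.3 on the control array and 51.8 on the array labelled RUNX2. This threshold is a rank on the array and no detection call. Because probe sets differ in how brightly they report a transcript, no level is compared between genes. Ratios are given as log2 of the array labelled RUNX2 over the control array. As a technical yardstick, probe sets of the same gene differed in log2 ratio with an SD of 0.29 over 6165 genes, a spread within this pair of arrays that holds no biological error. It includes ratios in which 1 value was raised to the median of its array, which can narrow it. Between the arrays, log2 levels had r = 0.986 over the whole set of probe sets, a value across features and not across samples.

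The probe sets for RUNX2 itself did not go 1 way. Of 3 above the median, 1 went from 204 to 854 and 1 from 102 to 353, whereas the brightest went down, from 1746 to 433. The array is therefore named by its label throughout, and every direction below rests on that label. Of 7 markers of squamous epithelium with a probe set, 7 were above the median on both arrays, and their summed level was 37641 and 46308. The keratins KRT14 (586 and 1579) and KRT5 (8842 and 12580) and the epithelial gene SFN (10612 and 14690) were higher on the array labelled RUNX2, LAMB3 was lower (3389 and 2569), and the median log2 ratio of the 7 was 0.12. Of 9 fibroblast markers, COL1A1, THY1 and TWIST1 were above the median on both arrays and 6 were below it on both arrays, including PDGFRA, PDGFRB, DCN, LUM, COL3A1 and COL1A2. The summed level of the fibroblast markers was 2451 on the control array and 1920 on the array labelled RUNX2. All 5 leukocyte markers were below the median on both arrays, with summed levels of 118 and 91.3, and 2 of 5 endothelial markers, VWF and PECAM1, were above it, with summed levels of 209 and 159.

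RefSeq start sites of 11 of the 28 genes were found in the promoter table, in 10 windows because HOXC4 and HOXC5 have a common start in it. The RefSeq gene table also gives HOXC6 that start. The following are the 250 bases before the start of 4 windows, 5′ to 3′. They are shown because HOXD8 and HOXD11 had the widest ratios in the HOXD cluster, and because HOXC4, HOXC5 and HOXD10 were above the median on both arrays with ratios near 0. Capitals mark TGTGGT or TGCGGT on either strand, the letters of the core that RUNX proteins bind.
HOXD8, chr2:176129455-176129704, plus strand, GRCh38.p14: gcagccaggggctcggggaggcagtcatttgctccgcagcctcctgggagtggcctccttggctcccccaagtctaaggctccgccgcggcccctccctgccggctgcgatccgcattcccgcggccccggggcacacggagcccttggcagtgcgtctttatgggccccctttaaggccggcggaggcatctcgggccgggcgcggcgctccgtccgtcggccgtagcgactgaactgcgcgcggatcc
HOXD11, chr2:176107030-176107279, plus strand, GRCh38.p14: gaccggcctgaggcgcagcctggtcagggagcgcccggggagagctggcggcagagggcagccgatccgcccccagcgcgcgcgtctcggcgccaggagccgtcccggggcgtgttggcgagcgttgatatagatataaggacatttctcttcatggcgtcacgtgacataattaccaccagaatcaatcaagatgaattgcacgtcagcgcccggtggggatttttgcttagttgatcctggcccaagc
HOXC4 and HOXC5, chr12:54016638-54016887, plus strand, GRCh38.p14: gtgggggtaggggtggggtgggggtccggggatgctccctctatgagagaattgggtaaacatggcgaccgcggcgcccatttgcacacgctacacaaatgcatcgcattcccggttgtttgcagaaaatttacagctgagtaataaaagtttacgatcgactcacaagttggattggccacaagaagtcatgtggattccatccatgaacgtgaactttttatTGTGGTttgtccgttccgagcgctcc
HOXD10, chr2:176116528-176116777, plus strand, GRCh38.p14: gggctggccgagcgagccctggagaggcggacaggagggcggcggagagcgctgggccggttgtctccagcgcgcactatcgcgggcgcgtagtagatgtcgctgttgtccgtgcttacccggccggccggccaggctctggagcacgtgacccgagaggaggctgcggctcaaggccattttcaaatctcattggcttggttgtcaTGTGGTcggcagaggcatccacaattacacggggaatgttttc

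The window common to HOXC4 and HOXC5 held 1 match that begins 26 bases before the start, and the HOXD10 window held 1 that begins 43 bases before it. No letters of the core were found in the windows of HOXD8 and HOXD11. Matches stood in 2 of the 10 windows of members and in 16.3% of 35116 promoter windows of the same length in the table. The homeodomain core TAATTA, searched on both strands, stood in the HOXD11 window and in 4.35% of all windows. The letters C and G made up 72.4% of the HOXD8 window and 50.8% of the window of HOXC4 and HOXC5, with 28 and 14 CG pairs, against medians of 58% and 11 pairs over all windows. Over the 10 member windows the medians were 59.4% and 18.5 pairs. These are descriptions of the letters in the windows and say nothing on binding.

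On the control array 14 of 28 HOX genes were above the median, and on the array labelled RUNX2 15 were. Over all genes with 1 symbol the share was 63.2% on the control array and 62% on the array labelled RUNX2, beside 50% and 53.6% of the HOX genes. The order of these shares turned with the threshold: at the 25th percentile the HOX shares were 89.3% and 92.9%, against 83.2% and 82.6% of all genes. When all probe sets of a gene had to pass the median, they were 35.7% and 42.9%, against 39.3% of all genes on each array. Genes above the median on both arrays numbered 13. HOXD4 passed it on the control array alone, HOXB3 and HOXD11 on the array labelled RUNX2 alone, and 12 genes on neither. Of all genes that passed on at least 1 array, 3.63% did so on the control array alone and 1.8% on the array labelled RUNX2 alone. Few members were bright: 3 genes on the control array (HOXC6, HOXC10 and HOXD8) and 2 on the array labelled RUNX2 (HOXC6 and HOXC13) exceeded the 75th percentile, 10.7% and 7.14%, against 40.1% and 39.4% of all genes.

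**Figure D1:**
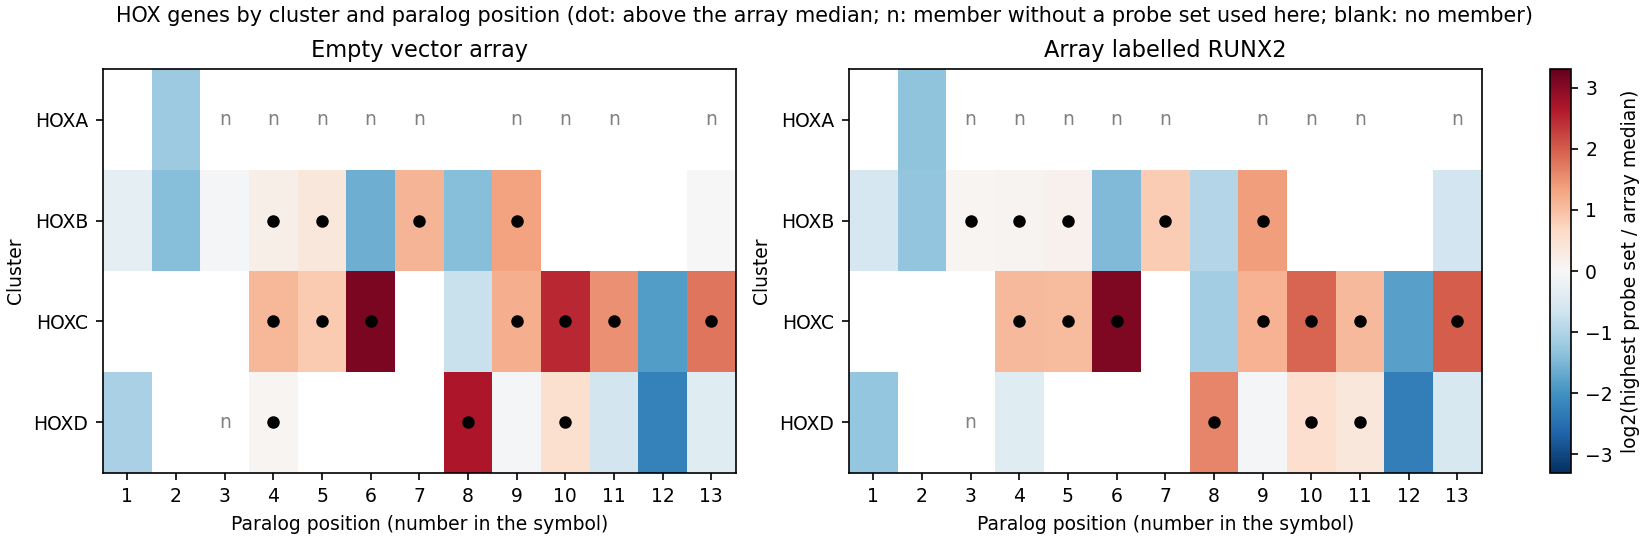
HOX genes by cluster (rows) and paralog position (columns) on the control array (left) and the array labelled RUNX2 (right), 1 array each. Colour is the log2 of the gene's highest probe set over the array median, a dot marks a gene above the median, n marks a listed gene without a probe set used here, and blank cells hold no listed gene. The HOXC row has 7 dots of 9 genes in both panels, and positions 1, 2 and 12 have none.

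By cluster, HOXC had the most, with 7 of 9 genes above the median on each array and no gene on 1 array alone. HOXB had 4 of 10 genes above it on the control array and 5 on the array labelled RUNX2, and HOXD had 3 of 8 on each, of which 2 were common to both arrays. Beside these counts, the share over all genes was 63.2% on the control array and 62% on the array labelled RUNX2. HOXA2, which sets the identity of the second pharyngeal arch, was below the median on both arrays, at 24.2 and 20.5. When every probe set of a gene had to pass, HOXC kept its 7 genes on both arrays, since each HOXC gene has 1 probe set, while HOXB kept HOXB4 and HOXB7 and HOXD kept HOXD8 on both.

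By paralog position, the genes read out nearest the head seldom passed the median. None of the 4 genes at positions 1 and 2 (HOXB1, HOXD1, HOXA2 and HOXB2) passed on either array. At position 3 only HOXB3 had probe sets, of which the brighter lay close to the line. This rests on the threshold: at the 25th percentile HOXA2, HOXB1, HOXB2, HOXB3 and HOXD1 passed on both arrays. Of 11 genes at positions 4 to 8, 8 were above the median on the control array and 7 on the array labelled RUNX2. Of 12 genes at positions 9 to 13, 6 and 7 were. Over all genes the share was 63.2% on the control array and 62% on the array labelled RUNX2. Differences from that share were not tested for any position. Paralogs did not go together at every position. At position 4 HOXB4 and HOXC4 passed on both arrays, and at position 5 HOXB5 and HOXC5 did. At position 6 HOXC6 passed and HOXB6 did not, and at position 8 HOXD8 passed while HOXB8 and HOXC8 did not. HOXB9 and HOXC9 passed at position 9 without HOXD9. HOXC10 and HOXD10 both passed at position 10. At position 11 HOXC11 passed on both arrays and HOXD11 on the array labelled RUNX2 alone. HOXC12 and HOXD12 did not pass, and at position 13 HOXC13 passed without HOXB13 and HOXD13.

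Some calls lay near the line. HOXB4 was 1.15 times the median on the control array and 1.07 times on the array labelled RUNX2. HOXD4 was 1.04 times and 0.762 times. HOXB3 was 0.951 times and 1.04 times. Just outside were HOXD9, at 0.956 and 0.958 times, and HOXB13 on the control array, at 0.986 times, with 0.649 times on the array labelled RUNX2. Calls for these genes turn on small differences in level.

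Of 9 HOXC genes, 7 were measured, each by 1 probe set. HOXC6, which takes part in thoracic patterning, read 472 on the control array and 439.8 on the array labelled RUNX2 in its 1 probe set, a log2 ratio of -0.10. HOXC4 read 117 and 108 (-0.12), and HOXC5 read 99.7 and 107 (0.10). HOXC4, HOXC5 and HOXC6, which have the same gene start in RefSeq, thus each differed between arrays by less than the spread between probe sets of a gene. Which of their transcripts the probe sets report was not examined. HOXC9, which specifies thoracic motor neurons, read 127 and 114 (-0.15).

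At the other end of the HOXC cluster the values went apart. HOXC10, a gene of lumbar and hindlimb identity, read 309 on the control array and 196 on the array labelled RUNX2, a log2 ratio of -0.66 or 1.58-fold lower. HOXC11, its neighbour, read 157 and 109, 1.44-fold lower (-0.53). HOXC13, a regulator of hair and nail keratins, read 189 and 207, a log2 ratio of 0.13. Measured from 0, HOXC10 and HOXC11 were lower by more than the 0.29 spread, and HOXC13 stood within it. The spread is a yardstick and no test of a change. Each of these genes had 1 probe set, so no further probe set could be set beside them. HOXC8, which patterns brachial motor neurons, was below the median at 32.9 and 23.3. HOXC12 was below it too, and its deposited intensity, 15.5, was equal in every digit on both arrays, as in 1447 probe sets in all.

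**Figure D2:**
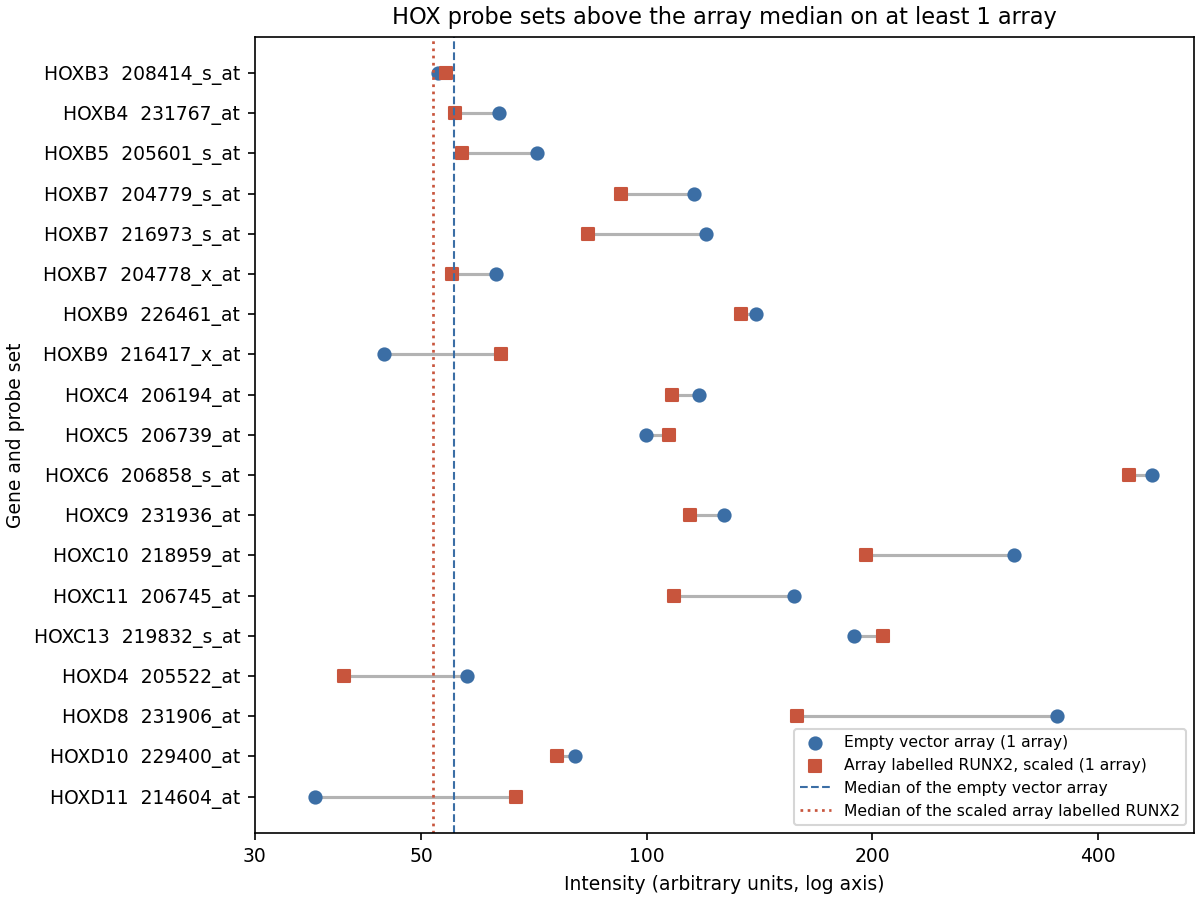
Intensity (arbitrary units, log axis) of the 19 HOX probe sets above the median on at least 1 array, with the control array as circles and the scaled array labelled RUNX2 as squares; vertical lines are the medians, 55.3 and 51.8. The widest gap is at HOXD8, 353 against 159, and HOXD11 lies on opposite sides of the medians.

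In the HOXD cluster 1 gene passed 2-fold. HOXD8, a gene of trunk patterning, read 353 on the control array and 159 on the array labelled RUNX2. It was thus 2.22-fold lower there, a log2 ratio of -1.15, and has 1 probe set. HOXD10, a gene of lumbar and hindlimb identity, read 80.2 and 75.9 (-0.08), and its other 2 probe sets were below the median on both arrays. HOXD4, which acts in the hindbrain and upper spine, read 57.6 and 39.5, at least 1.11-fold lower with the floor at the median. HOXD11, which shapes the forearm together with its HOXA paralog, went the other way. It read 36.1 on the control array and 66.9 on the array labelled RUNX2, at least 1.21-fold higher against the floor, and 1.85-fold higher between the readings themselves, of which the lower lies below the median. HOXD9 lay just under the median at 52.9 and 49.7. HOXD1, HOXD12 and the digit gene HOXD13 were below it on both arrays, between 7.07 and 42.2 over 6 probe sets.

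The HOXB genes above the median were all lower or close to equal on the array labelled RUNX2. HOXB7, often highly expressed in carcinomas, was the member with the most measured probe sets. It read 116 and 92.4 in the brightest, 119.9 and 83.5 in another, and 63.0 and 55.0 in the dimmest, with log2 ratios of -0.32, -0.52 and -0.19. All 3 probe sets were lower on the array labelled RUNX2. HOXB5 read 71.3 and 56.8 (-0.33), with its other probe set below the median. HOXB4, known from the growth of blood stem cells, read 63.5 and 55.4 (-0.20). HOXB9, which acts in the ribs and the mammary gland, read 139.7 and 134 in its brightest probe set (-0.06) but 44.6 and 63.9 in the other, where it was at least 1.16-fold higher, so its probe sets did not agree in direction. HOXB3 read 52.6 and 53.9, and no fold is given because the higher reading does not exceed the floor of the other array.

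The remaining HOXB genes were below the median on both arrays. The hindbrain gene HOXB1 read 44.9 and 35.2 in its brighter probe set, and HOXB2 read 20.8 and 21.0. HOXB6 and HOXB8 lay between 11.8 and 26.6 over 4 probe sets. HOXB13, a gene of the prostate and the tail end of the axis, read 54.5 and 33.7 in its brighter probe set and 16.4 and 12.5 in the other.

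Taking each gene by its brightest measured probe set, 16 of the 28 HOX genes were measured, that is, above the median on at least 1 array. Of these 16, 0 were higher by 2-fold or more on the array labelled RUNX2, beside 1.41% of all 12729 measured genes, and 1, HOXD8, was lower by 2-fold or more, beside 1.47%. The median log2 ratio of the 16 genes was -0.13, with a range from -1.15 (HOXD8) to the bound of 0.28 (HOXD11), against a median of -0.06 over all measured genes. Ratios below 0 were found in 13 of the 16, and in 57.4% of all measured genes. HOXB3 is among the 13 through the floor alone, since its reading on the array labelled RUNX2 was the higher of its readings. Among the 13 genes above the median on both arrays, 11 were below 0, against 56.3% of all such genes, and the exceptions were HOXC5 and HOXC13. The count below 0 moves with the scale of the arrays: with equal medians it was 10 of 16. The median over all measured genes was then 0.03. Below the median ratio of all measured genes were 11 of 16 HOX genes. Equal medians cannot change this count, because that step shifts every log2 ratio by the same amount. At 1.5-fold, 2 of 16 were lower (HOXD8 and HOXC10) and 0 were higher, with 6.86% of all genes lower and 5.77% higher.

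**Figure D3:**
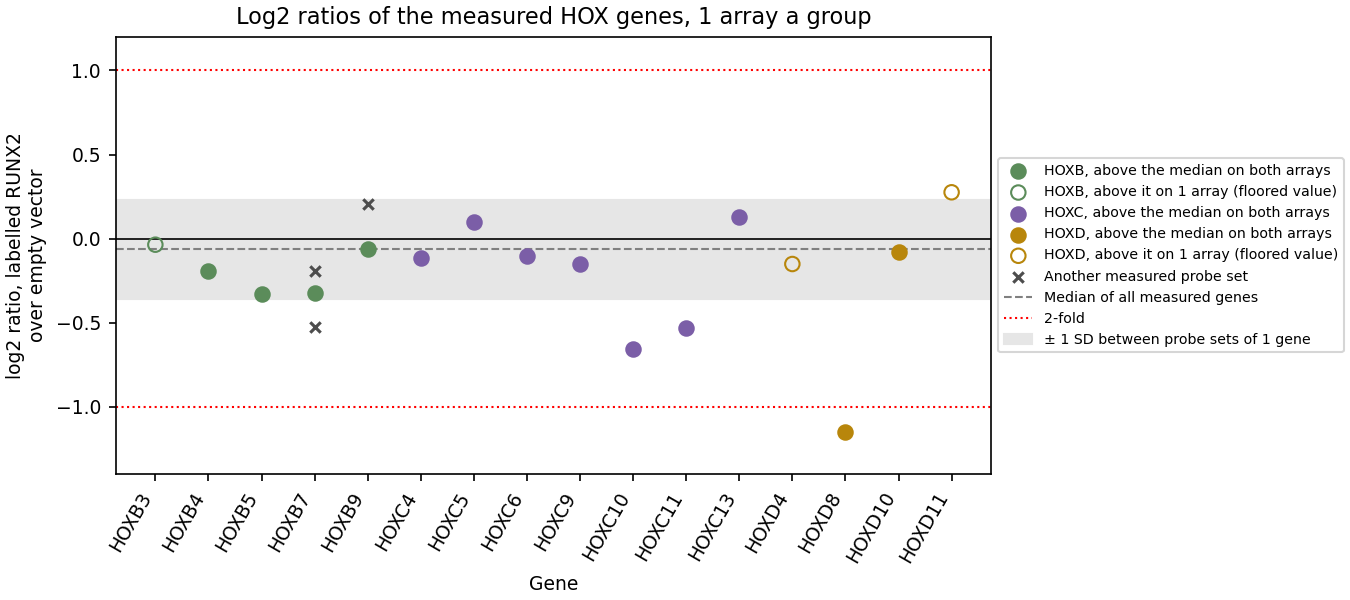
Log2 ratio (array labelled RUNX2 over control array) of the 16 measured HOX genes, with filled points for genes above the median on both arrays, open points for floored values, and crosses for other measured probe sets. The grey band is the median of all genes, -0.06, plus and minus the SD of 0.29 between probe sets of a gene; HOXD8, HOXC10 and HOXC11 lie below the band, and HOXD11, as a bound, lies above it.

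By cluster the median log2 ratio was -0.20 over 5 HOXB genes, -0.12 over 7 HOXC genes and -0.11 over 4 HOXD genes. The HOXD value holds 2 floored bounds, HOXD4 and HOXD11. Over genes above the median on both arrays the medians were -0.26 for 4 HOXB genes, -0.12 for 7 HOXC genes and -0.62 for 2 HOXD genes. Ratios ran from -0.33 to -0.04 in HOXB (the upper end being the floored HOXB3), from -0.66 to 0.13 in HOXC and from -1.15 to 0.28 in HOXD. By position the median was -0.17 over 8 genes at positions 4 to 8 and -0.08 over 7 genes at positions 9 to 13. The summed levels of the fibroblast, leukocyte and endothelial markers were lower on the array labelled RUNX2, as HOXD8, HOXC10 and HOXC11 were, and that of the squamous markers was higher, although LAMB3 and DSG3 of that list had ratios of -0.40 and -0.08. Their part in these ratios was not tested. Both arrays are of 1 cultured carcinoma line, so these sums are not read here as shares of cell types. All 5 leukocyte, 6 of 9 fibroblast and 3 of 5 endothelial markers were below the median on both arrays. COL1A1 gave most of the fibroblast sum, 1937 of 2451 on the control array. In bulk RNA, fewer cells of the line with a transcript and less of it per cell cannot be told apart.

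Non-coding genes between the HOX genes are no members, and those with a probe set are given beside their neighbours in the HOXC and HOXD clusters, a choice made after their values were seen. HOTAIR, a long non-coding RNA between HOXC11 and HOXC12, read 101 on the control array and 49.1 on the array labelled RUNX2, at least 1.96-fold lower against the floor. HOXC-AS3, between HOXC10 and HOXC11, was below the median at 28.4 and 22.4. HAGLR, between HOXD3 and HOXD1, read 302 and 183 in its brightest probe set (-0.72) and was below the median in 2 others. HAGLROS, which lies within the span of HAGLR, read 205 and 139 (-0.56). LOC100129455, beside HOXD8, read 64.0 and 43.0, at least 1.24-fold lower, whereas HOXD-AS2, on the other side of HOXD8, read 77.3 and 78.6 (0.02). Lower values near HOXD8 thus did not include every transcript. In the HOXA cluster HOXA-AS2 read 97.8 and 89.0 in its brightest probe set, and a probe set annotated to both HOXA10-AS and MIR196B read 97.7 and 87.6, while HOXA11-AS and HOXA-AS3 were below the median. In the HOXB cluster LINC02086, between HOXB9 and HOXB13, read 127 and 98.8 (-0.37), while HOXB-AS1, HOXB-AS3, MIR10A and PRAC1 were below the median on both arrays.

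**Figure D4:**
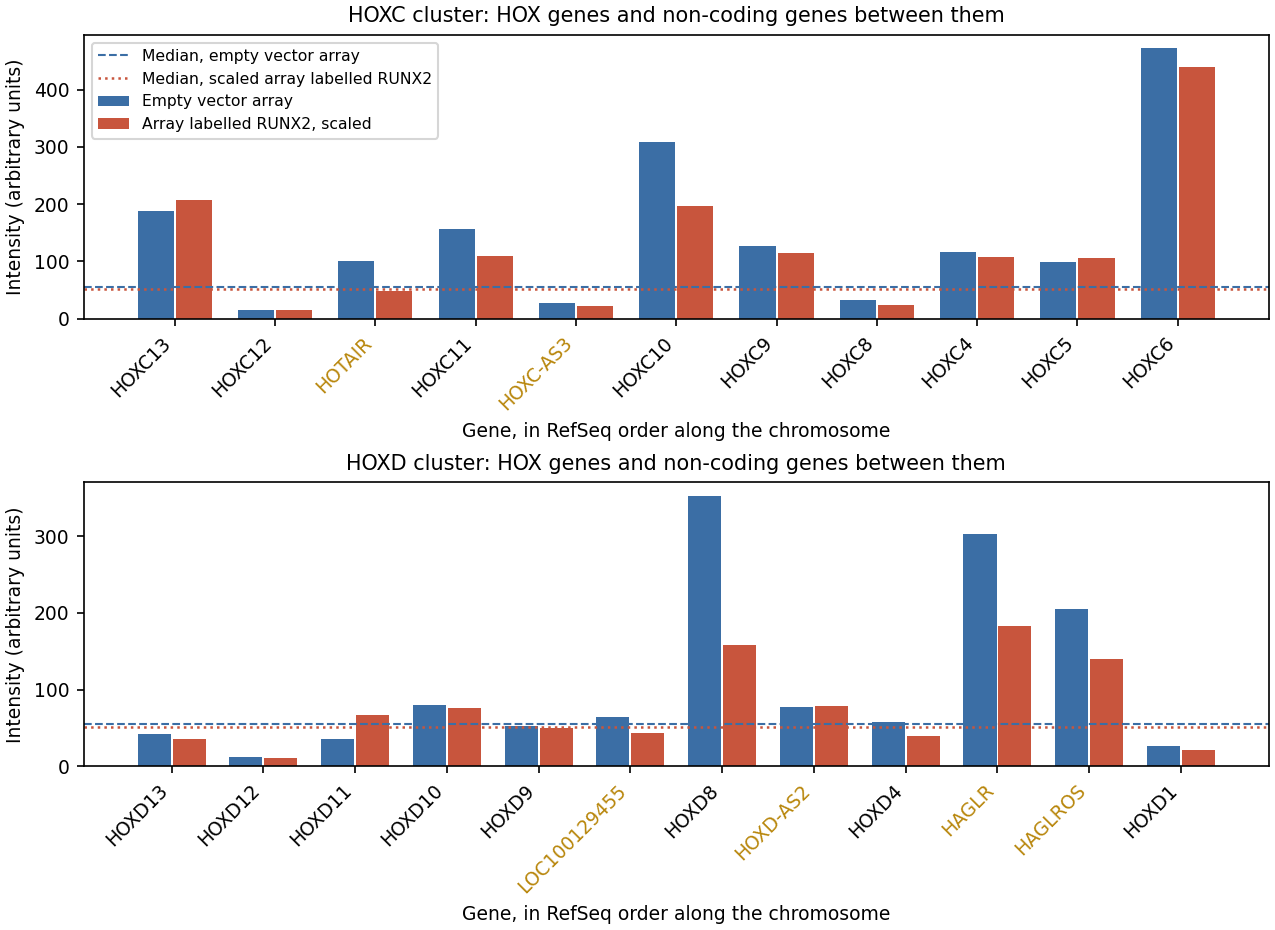
Intensity (arbitrary units, linear axis from 0) of HOXC and HOXD genes (black names) and of non-coding genes between them (ochre names), in RefSeq order along the chromosome, by the probe set that stands for each gene, on the control array and the scaled array labelled RUNX2, with both medians as lines. HOXC4, HOXC5 and HOXC6, which have the same gene start in RefSeq, differ little between arrays. HOXD8, HAGLR, HAGLROS, HOXC10, HOXC11 and HOTAIR are lower on the array labelled RUNX2. Bar heights are not comparable between genes.

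Protein-coding genes beside the clusters, also chosen with their values known, gave no common direction. Beside HOXC, ATP5MC2 had a log2 ratio of -0.44 and CALCOCO1 of -0.51, CBX5 ran from -0.32 to 0.46 over 5 measured probe sets, and SMUG1 had -0.09 in its brightest probe set and a bound of 0.52 in another. Beside HOXD, LNPK had ratios of -0.10 to 0.07 over 3 probe sets, MTX2 had 0.09, and HNRNPA3 ran from -0.31 to 0.87 over 3. Beside HOXA, SKAP2 was lower in all 5 measured probe sets, from -0.56 to -0.26, HIBADH ran from -0.33 to a bound of 0.19 over 3, SNX10 had 0.07, and EVX1 had a bound of 0.15 in its 1 measured probe set. Beside HOXB, SNX11 had 0.15 and 0.20 in its 2 probe sets, CALCOCO2 had 0.02, -0.42 and -0.54 in 3, and SKAP1 and TTLL6 were below the median on both arrays.

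Among the TALE partners that HOX proteins bind DNA with, 8 of 9 listed genes had a probe set. All 8 were above the median on the array labelled RUNX2 and 7 on the control array, 100% and 87.5%, against 62% and 63.2% of all genes. PKNOX2 was the exception, at 45.8 and 52.4. Their median log2 ratio was -0.08, with 0 of 8 passing 2-fold, beside 1.41% of all measured genes higher and 1.47% lower. PBX3 had -0.36, from 365 to 286, PKNOX1 had -0.24 in its brightest probe set and 0.36 and -0.28 in others, and MEIS1 had 0.13, from 149.6 to 164. PBX2 had -0.26 in its brightest probe set and 0.23 in another.

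Polycomb subunits, which keep HOX clusters silent, were all above the median on both arrays (23 of 23 with a probe set). The share over all genes was 63.2% on the control array and 62% on the array labelled RUNX2. Their median log2 ratio was -0.07. At least 2-fold higher were 0, beside 1.41% of all measured genes, and 1, EZH1, was at least 2-fold lower, beside 1.47%. EZH1, a histone H3K27 methyltransferase, read 362 on the control array and 158 on the array labelled RUNX2 (-1.20), and -1.20 in the next brightest, while a dimmer probe set gave -0.50 as a bound. EZH2, the other methyltransferase of this kind, named here after its value was seen, had 0.40, from 210 to 277. CBX7, which reads the H3K27 mark, had -0.76, from 342 to 202, and PHC3 had -0.74 in its brightest probe set but between -0.25 and 0.13 in 3 others. PHF1, a partner of the PRC2 methyltransferase complex, had -0.55 in its brightest probe set and -0.36 in its other.

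For the trithorax group and H3K27 demethylases, 18 genes gave a median log2 ratio of 0.06. All 18 were above the median on both arrays, against 63.2% of all genes on the control array and 62% on the array labelled RUNX2. Of the 18, 0 passed 2-fold, beside 1.41% of all measured genes higher and 1.47% lower. KDM6A, which removes the H3K27 mark, was the widest at 0.93, from 184 to 351, with 0.82 in another probe set. In their brightest probe sets PSIP1, a chromatin partner of KMT2A, had -0.30, and the methyltransferase KMT2C and the demethylase KDM6B had -0.28 each. PSIP1 also had 0.33 and KMT2C 0.15 in a dimmer probe set, while all 4 measured KDM6B probe sets were below 0. KMT2A, known for keeping HOX genes active and added for that role, had -0.04 in its brightest probe set, and its 8 measured probe sets were all below 0, down to -0.36.

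Retinoic acid, CDX and other upstream regulators were measured for 12 of 19 genes, beside 64.4% of all genes, with a median of -0.15. Of the 12, 0 passed 2-fold, beside 1.41% of all measured genes higher and 1.47% lower. CYP26B1, which degrades retinoic acid, had 0.46 in its brightest probe set and -0.29 in another. RXRB, a retinoid receptor, had -0.49, RDH10, which makes its precursor retinaldehyde, had -0.39 in its brightest probe set and -0.66 in another, and CDX1, a homeobox activator of HOX genes, had -0.45. The other CDX genes, CDX2 and CDX4, were below the median on both arrays, as was RARB, a gene known to be induced by retinoic acid.

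Of 64 other homeobox genes outside the clusters, 30 were above the median on the control array and 31 on the array labelled RUNX2. These were 46.9% and 48.4%, beside 50% and 53.6% of the HOX genes and 63.2% and 62% of all genes. Among the 32 measured, DLX1 and DLX2 were more than 2-fold higher, beside 1.41% of all measured genes. That much lower were 0, beside 1.47%, and the median log2 ratio was -0.12. DLX2, which patterns the jaw arches, read 47.4 and 172, at least 3.12-fold higher, with its other probe set below the median on both arrays, and its partner DLX1 read 67.6 and 158 (1.22) in its brightest probe set, while another probe set of DLX1 went from 56.2 to below the floor. PITX1, a hindlimb and oral epithelium factor, had 0.88 and 0.74 in its 2 probe sets, SATB1 had -0.80, and MSX2, a factor of craniofacial development, had 0.76 in its brightest probe set and 0.24 in another. The difference between these genes and the HOX genes was not tested.

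**Figure D5:**
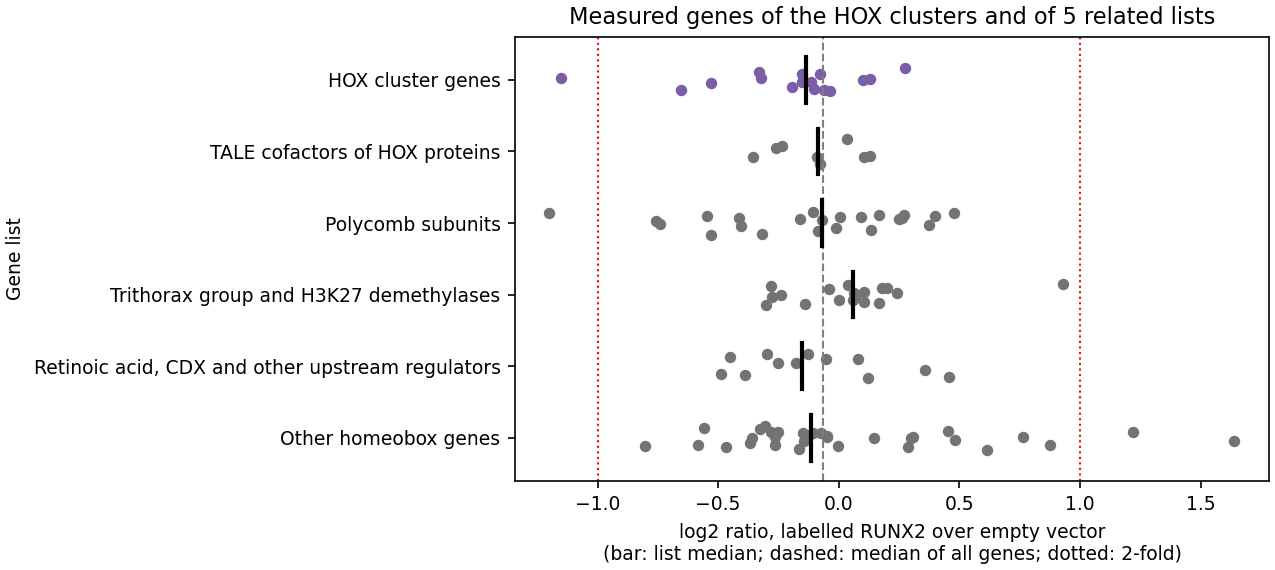
Log2 ratio (array labelled RUNX2 over control array) of the measured genes of the HOX clusters and of 5 related lists, 1 point per gene, with a bar at each list's median, a dashed line at the median of all genes and dotted lines at 2-fold. HOXD8 is the 1 HOX gene beyond 2-fold, EZH1 the 1 Polycomb gene, and DLX1 and DLX2 are beyond it upwards.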

How the data were processed

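Each array has 1 linear intensity for every probe set, as the authors deposited it. The submitters' processing notes name MAS5; its version, the scaling target and detection calls are not given in the sources used here. Of 54613 probe sets without the 62 controls, 41091 carried 1 symbol, 1801 several and 11721 were not named in the platform annotation; symbols were updated by Entrez ID through a RefSeq table of assembly GRCh38.p14. The array labelled RUNX2 was scaled to equal 2% trimmed means. Values below an array's median were raised to it before ratios were taken, so a ratio with 1 such value is a bound. Where a gene had several measured probe sets, the brightest by mean log2 level was taken. Genes were counted at 2-fold. Promoter sequences are from RefSeq. Samples were grouped by title. All member genes are named; of each related list, up to 4 genes measured on both arrays with the widest ratios are, and PKNOX2, EZH2, KMT2A, CDX2, CDX4, RARB and DLX2 were added after their values were seen. A comparison of the proteins was not made. The members and lists were chosen with earlier results of these data known. The calculations used Python 3.11.15 and statsmodels 0.14.6 and were tested on simulated data.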

Additional observations from a re-analysis of the deposited data

How the results depend on the processing

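Alternatives changed the scaling, the floor, the probe set rule and the thresholds. HOXD8 was the 1 gene at least 2-fold lower under the deposited scale, equal medians, quantile normalization and loess. It was also the 1 such gene with the 25th percentile floor, no floor, the mean over probe sets, and without probe sets ending in _x_at or _s_at. These floor and probe set settings could not alter the ratio of HOXD8 itself. It has 1 probe set, without such an ending, and both readings lie above the medians. The count was 0 with the floor at the 75th percentile (HOXD8 at -0.81), 0 when the floor was added as an offset (-0.95), 2 at 1.5-fold and 0 at 4-fold. The count at least 2-fold higher was 0 under all of these. The median log2 ratio of the HOX genes ran from -0.17 to -0.04 except with the floor at the 75th percentile, where it was -0.36 over 4 genes. The median over all genes moved from -0.06 to 0.03 with equal medians. With the 25th percentile as threshold, 25 HOX genes passed on the control array and 26 on the array labelled RUNX2, a higher share than over all genes, and with the 75th percentile 3 and 2, a lower one. When all probe sets of a gene had to pass, 10 and 12 did, a lower and a higher share. HOXD11 was at 0.89 and HOXD4 at -0.54 both with the 25th percentile floor and with none. Signs near 0 changed with the setting for HOXB3, HOXB9 and HOXD10. No replicate could be left out with 1 array per group. No paired analysis was possible because each group holds 1 array.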
